A study of Danio rerio with 6 samples.

Results

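Amino acid transporters are the membrane proteins that carry amino acids, and the taurine, creatine and neurotransmitters that some relatives handle, into, out of and within cells. The genes described here are all rows of the count table whose name places them in the solute carrier families slc1a, slc3a, slc6a, slc7a, slc36a, slc38a or slc43a, which gave 79 of 32059 rows. Of these, 12 belonged to slc1a, 3 to slc3a, 26 to slc6a, 17 to slc7a, 2 to slc36a, 13 to slc38a and 6 to slc43a. One of the 79, slc7a6os, shares a locus name with slc7a6 but encodes no transporter.

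RNA was sequenced from sorted cells, named thyroid follicular cells in the labels, of zebrafish at 5 months of age. All fish carried nuclear EGFP under the thyroglobulin (tg) promoter together with mKO2 knocked into pax2a, a paired-box transcription factor gene of thyroid development. Sorting on mKO2 gave pax2a-high and pax2a-low populations of 3 libraries each, and the comparison addresses how both sorted populations differ. The labels do not say whether replicates came from separate fish or pools, and the spread that the p-values rest on may therefore be technical. Since the libraries are bulk RNA, fewer cells of a type and less RNA per cell cannot be told apart.

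Thyroid follicular cells build thyroglobulin, a very large secreted protein, and take up the amino acids for it from blood. In mammals, slc38a and slc1a carriers bring in neutral amino acids such as glutamine with sodium, slc7a carriers exchange neutral amino acids or move arginine and lysine, and slc3a proteins are the heavy chains that bring many slc7a light chains to the cell surface. The light chains LAT1 and LAT2 (SLC7A5 and SLC7A8) also carry iodothyronines in mammals. When amino acids run short, the ATF4 branch of the stress response raises several of these genes in mammalian cells.

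Libraries held 18014891 to 35403210 counts for pax2a-high, compared with 6053741 to 10932845 for pax2a-low cells, so a count of 3 corresponded to 0.0853 to 0.186 and 0.237 to 0.586 counts per 1000000 (CPM, over TMM-scaled library sizes). The tg gene took 15.3 to 24% of counts among pax2a-high libraries, versus 0.398 to 3.8% among pax2a-low libraries, and mitochondrial rows took 0.799 to 1.17% and 24.1 to 49%. The sorted gene pax2a was at 307, 437 and 586 CPM in replicates 1, 2 and 3 of the pax2a-high sort, against 2.34, 1.26 and 159 CPM in those of the pax2a-low sort. For pax2a, pax2a-low replicate 3 thus stood apart from the other pax2a-low libraries. The reporter mKO2 had 74, 671 and 654 counts in pax2a-high, against 0, 6 and 0 in pax2a-low replicates 1, 2 and 3. By that reporter pax2a-low replicate 3 did not stand apart, and pax2a-high replicate 1 was lowest of its group. The tg-driven EGFP reporter was at 254, 265 and 416 CPM in pax2a-high, against 26.9, 46.7 and 178 CPM in pax2a-low replicates 1, 2 and 3. By EGFP, as by pax2a, pax2a-low replicate 3 thus lay above the other pax2a-low libraries. For pax2a, mKO2 and EGFP each pax2a-high library lay above each pax2a-low library. Even so, edgeR called none of them (adjusted p = 0.595, 0.344 and 0.182). All 8 tested thyroid markers (tg, tshr, slc5a5, pax8, nkx2.4b, hhex, duox and dio1) were higher in every pax2a-high library than in any pax2a-low one, beside 21.4% of all tested genes. Of these markers edgeR called slc5a5 and dio1, beside 1.12% of all tested genes called higher. Within the pax2a-low sort, tg, tshr, pax8, nkx2.4b and duox were highest in replicate 3, while slc5a5, hhex and dio1 were not. Summed levels of 21 ionocyte markers (ionocytes are ion-transporting epithelial cells of fish) were 23.7 to 114 CPM among pax2a-high libraries, versus 8089 to 10512 CPM among pax2a-low libraries. Of the 15 tested, 9 were called lower, beside 1.46% of all tested genes. The genes foxi3a, foxi1, ca15a, rhcga, rhbg, gcm2, slc4a1b and kcnj1a.5 were at 0 in all pax2a-high libraries. Among the tested markers, atp1a1a.5, slc9a3.2, atp6v1aa and slc4a4b overlapped between the groups. The markers atp1a1a.2 and atp1b1b averaged 3458 and 2552 CPM in pax2a-low, against 2.84 and 0.113 CPM in pax2a-high. Summed levels of 16 macrophage and dendritic markers were 32.2 to 175 CPM in the pax2a-high sort against 602 to 1550 CPM in the pax2a-low sort, with no common direction over the list. Of the 6 tested, 0 were called by edgeR and 3 were lower at an unadjusted p under 0.05, beside 4.60% of all tested genes. DESeq2 called 3 lower and limma 2, beside 511 and 277 of all 12524 tested genes. The antigen presentation genes cd74a and cd74b and the macrophage gene mpeg1.2 were lower in every pax2a-high library than in any pax2a-low one, beside 8.11% of all tested genes. By contrast, lcp1 had 8, 24 and 61 counts for pax2a-high and 0 in every pax2a-low library. The complement genes c1qa and c1qc had counts in pax2a-low replicate 2 alone, and c1qb in no library. The part of these other cell types in the differences below was not tested.

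Of the 79 genes, 7 had no count in any library and 43 passed the filter on low counts. In pax2a-high against pax2a-low cells, 3 of the 43 rose, against 1.12% of all 12524 tested genes, and 1 fell, against 1.46% of all tested genes (quasi-likelihood test of edgeR, with p adjusted by Benjamini-Hochberg and a threshold of 0.05). At an unadjusted p under 0.05, 5 of the 43 were higher and 3 lower, beside 9.76% and 4.60% of all tested genes. The 3 that rose were slc38a3a, slc7a3b and slc38a2, and the 1 that fell was slc43a3b. Without pax2a-low replicate 3, 4 were called higher, these 3 and slc38a8b, and 1 lower. All pax2a-low counts of slc38a8b were in that replicate, so its call there follows from which library was left out. The log2 fold change was positive for 25 of the 43 (58.1%), close to the 57.1% of all tested genes, and the median was 0.73, also with slc43a3b at its bound, beside 0.35 over all tested genes. The order of these medians turned without pax2a-high replicate 1 (0.39 over the transporter genes and 0.47 over all) and without pax2a-low replicate 3 (0.67 and 0.70), and both were larger without pax2a-low replicate 2 (2.04 and 1.33). These counts describe genes that passed the filter and give no test of the families as a set. Levels are not corrected for gene length, so they are compared between libraries and not between genes.

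**Figure D1:**
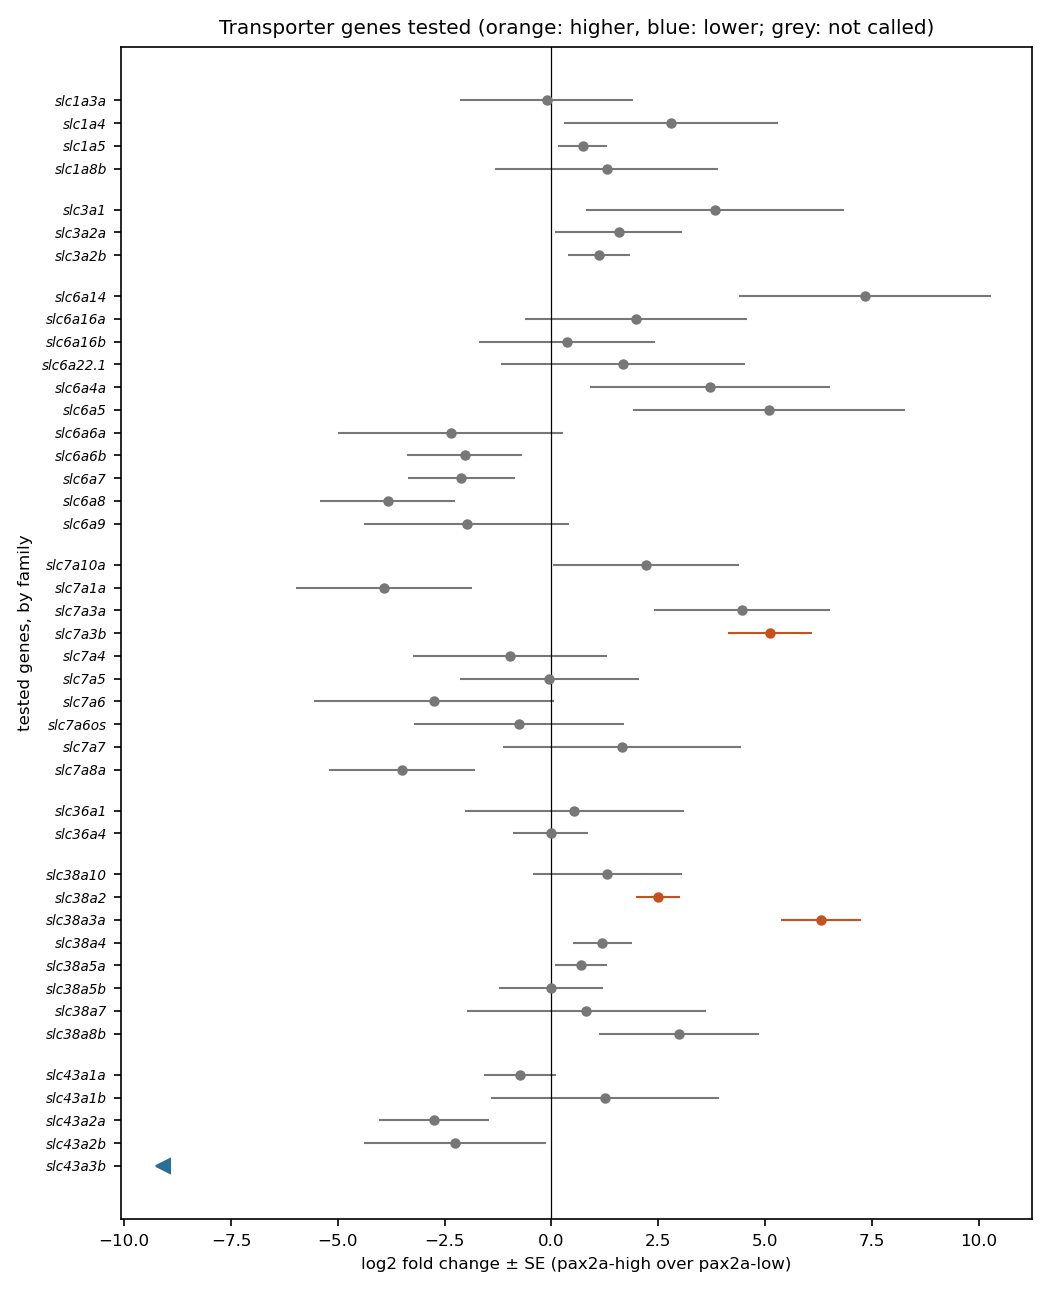
Log2 fold change of the 43 tested genes (x axis, pax2a-high over pax2a-low) by family (y axis). Points are edgeR estimates and bars 1 SE. The triangle for slc43a3b, which had no count in pax2a-high, marks its bound, 548-fold lower with each pax2a-high library set to 3 counts. The genes slc38a3a (6.31), slc7a3b (5.12) and slc38a2 (2.49), in orange, passed as higher.

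The slc38a family of sodium-coupled neutral amino acid carriers held 2 of the 3 genes that rose. The gene slc38a2 encodes SNAT2, a system A carrier of small neutral amino acids that mammalian cells induce when amino acids are scarce. It was at 1389, 1879 and 914 CPM for pax2a-high, compared with 169, 460 and 117 CPM for pax2a-low replicates 1, 2 and 3. The lowest pax2a-high library lay above the highest pax2a-low library. Levels averaged 1394 ± 482 CPM among pax2a-high cells, versus 249 ± 185 CPM among pax2a-low cells (SD, n = 3 each), a 5.6-fold increase (log2 fold change 2.49 with SE 0.52, and edgeR's adjusted p = 0.016). The call was lost when pax2a-high replicate 1 was left out (edgeR adjusted p = 0.067), with a filter of 5 CPM in 3 libraries (edgeR adjusted p = 0.059), with limma (adjusted p = 0.142) and at a threshold of 0.01, while the log2 fold change stayed positive, up to 3.25, in all alternatives.

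The gene slc38a3a encodes a SNAT3 carrier, a system N glutamine carrier in mammals, and had the smallest p of all the transporter genes. It had 1968, 4651 and 6157 counts in the pax2a-high sort against 10, 32 and 10 counts in the pax2a-low sort. These were 122, 238 and 175 CPM for pax2a-high, compared with 1.95, 4.02 and 0.789 CPM for pax2a-low cells, so the groups were far apart in every library, including pax2a-low replicate 3. The increase was 79.2-fold (log2 fold change 6.31 with SE 0.94, and edgeR's adjusted p = 0.0009), and the log2 fold change lay between 5.84 and 7.01 in the alternatives. The call held in 16 of 17 alternatives and was lost with limma (adjusted p = 0.078). Its paralogue slc38a3b had 126, 12 and 0 counts among pax2a-high libraries, versus 0, 8 and 2 counts among pax2a-low libraries, too few to be tested.

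Of the other slc38a genes tested, slc38a4, slc38a5a, slc38a5b, slc38a7, slc38a8b and slc38a10 did not pass. The system A gene slc38a4 was at 112, 156 and 98.6 CPM in the pax2a-high sort against 51.2, 44.2 and 65.7 CPM in the pax2a-low sort. The groups did not overlap, yet the log2 fold change of 1.19 (SE 0.69) was not called (edgeR adjusted p = 0.526). The gene slc38a8b was at 65.5, 37.3 and 94.5 CPM for pax2a-high, compared with 0, 0 and 24.6 CPM for pax2a-low libraries (log2 fold change 2.99 with SE 1.88, and edgeR's adjusted p = 0.596). All of its pax2a-low counts came from replicate 3, and without that library the gene passed (edgeR adjusted p = 0.00119). Only pax2a-low libraries at 0 were then left, so that call follows from which library was left out. The system N genes slc38a5a and slc38a5b overlapped between the groups, with log2 fold changes of 0.70 (SE 0.61) and -0.01 (SE 1.21). The genes slc38a7 and slc38a9, which act at the lysosome in mammals, the second as an arginine sensor of mTORC1, had at most 258 and 114 counts in any library.

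**Figure D2:**
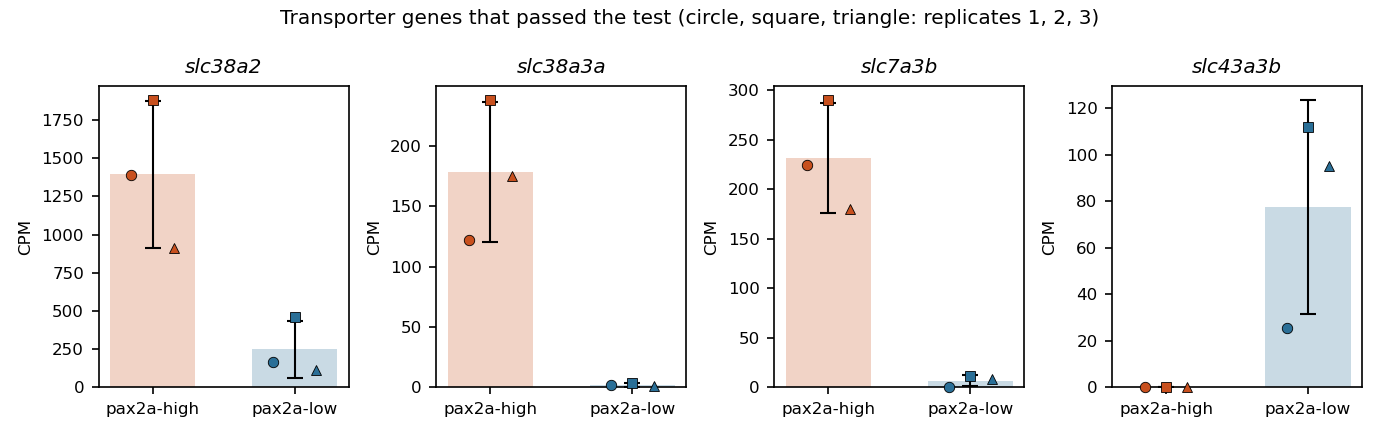
Level in CPM (y axis, linear from 0, one scale per panel) of the 4 genes that passed the test in pax2a-high and pax2a-low cells; symbols are libraries, bars the mean and whiskers the SD (n = 3). For slc38a3a, slc7a3b and slc38a2 each pax2a-high library lies above each pax2a-low library, and slc43a3b is at 0 in all pax2a-high libraries.

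In the slc7a family 1 arginine and lysine carrier rose, and a related one lay lower without passing the test. The gene slc7a3b encodes a CAT3 carrier of cationic amino acids and had 3636, 5651 and 6341 counts among pax2a-high replicates, versus 2, 90 and 104 counts among pax2a-low replicates. It was at 225, 290 and 180 CPM in the pax2a-high sort against 0.391, 11.3 and 8.21 CPM in the pax2a-low sort, with every pax2a-high library above every pax2a-low library. The increase was 34.7-fold (log2 fold change 5.12 with SE 0.98, and edgeR's adjusted p = 0.00745). It was lost without pax2a-low replicate 2 (edgeR adjusted p = 0.064) and with limma (adjusted p = 0.113), with a log2 fold change of 4.60 to 5.72 in all alternatives.

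Its paralogue slc7a3a was at 72.5, 31.4 and 29 CPM for pax2a-high, compared with 0.781, 5.28 and 0 CPM for pax2a-low cells, also without overlap, but did not pass (log2 fold change 4.45 with SE 2.06, and edgeR's adjusted p = 0.330). DESeq2 called it (adjusted p = 0.045). The CAT1 gene slc7a1a, the widely expressed cationic carrier of mammals, was at 0, 1.49 and 7.02 CPM among pax2a-high cells, versus 9.37, 40.5 and 80.2 CPM among pax2a-low cells. Every pax2a-high value lay below every pax2a-low value, and the log2 fold change of -3.93 (SE 2.06) was not called (edgeR adjusted p = 0.444). The CAT2 gene slc7a2 had at most 98 counts in a library. How multiply mapped reads were counted is not given in the sources used here, so the split between the slc7a3 paralogues is uncertain. Summed over both, the pair was at 297, 321 and 209 CPM in the pax2a-high sort against 1.17, 16.6 and 8.21 CPM in the pax2a-low sort.

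Of the 3 heavy chain genes of slc3a, 0 passed with edgeR, at an unadjusted p under 0.05, with DESeq2 or with limma. The CD98 heavy chain gene slc3a2b was at 197, 175 and 52.2 CPM for pax2a-high, compared with 83.6, 83.2 and 28 CPM for pax2a-low cells (log2 fold change 1.12 with SE 0.73, and edgeR's adjusted p = 0.619). Its paralogue slc3a2a was at 30.7, 54.2 and 61.1 CPM among pax2a-high cells, versus 11.7, 37.2 and 0.316 CPM among pax2a-low cells (log2 fold change 1.57 with SE 1.49, and edgeR's adjusted p = 0.800). Both overlapped between the groups. The rBAT heavy chain gene slc3a1 had 0, 294 and 210 counts in the pax2a-high sort against 0, 0 and 18 counts in the pax2a-low sort, and its mammalian partner's gene slc7a9 had 0, 364 and 162 counts in pax2a-high and 0 in every pax2a-low library. Both were thus detected in pax2a-high replicates 2 and 3 and absent from replicate 1 of either group, and slc7a9 was not tested.

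Light chains that pair with CD98 in mammals showed no common direction. The LAT1 gene slc7a5 was at 10.5, 31.4 and 5.66 CPM for pax2a-high, compared with 0, 11.4 and 37.7 CPM for pax2a-low cells (log2 fold change -0.05 with SE 2.09, and edgeR's adjusted p = 0.999). The LAT2 gene slc7a8a was at 25.7, 0.0512 and 1.11 CPM among pax2a-high cells, versus 191, 99 and 14.5 CPM among pax2a-low cells (log2 fold change -3.50 with SE 1.71, and edgeR's adjusted p = 0.403). The groups of slc7a8a overlapped through pax2a-high replicate 1, which lay above pax2a-low replicate 3. The neutral exchanger gene slc7a10a was at 40.4, 22.2 and 10.6 CPM in the pax2a-high sort against 10.5, 0 and 5.21 CPM in the pax2a-low sort (edgeR adjusted p = 0.809), a narrow separation between the lowest pax2a-high and the highest pax2a-low library. The y+L light chain genes slc7a6 and slc7a7 had log2 fold changes of -2.75 (SE 2.80) and 1.65 (SE 2.78). The cystine exchanger gene slc7a11 had 0, 0 and 360 counts for pax2a-high, compared with 0, 188 and 4 counts for pax2a-low libraries and was not tested. The row slc7a6os overlapped between groups (log2 fold change -0.76, SE 2.45), and as the strand setting of the counting is not given, reads from it and slc7a6 may not be separable.

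The slc1a genes of glutamate and neutral amino acid carriers gave 0 calls among 4 tested with edgeR, and likewise 0 at an unadjusted p under 0.05, with DESeq2 and with limma. The ASCT2 gene slc1a5, a sodium-dependent glutamine exchanger in mammals, was at 205, 202 and 107 CPM among pax2a-high cells, versus 91.4, 116 and 102 CPM among pax2a-low cells. Pax2a-high replicate 3 lay within the pax2a-low range (log2 fold change 0.73 with SE 0.58, and edgeR's adjusted p = 0.736). The ASCT1 gene slc1a4 was at 37.2, 19.7 and 9.73 CPM in the pax2a-high sort against 0, 9.55 and 0 CPM in the pax2a-low sort, separated by a small margin (edgeR adjusted p = 0.783). The glutamate carrier gene slc1a3a was at 15, 16.7 and 20.1 CPM for pax2a-high, compared with 35.9, 20.1 and 0 CPM for pax2a-low cells, and its log2 fold change of -0.11 (SE 2.02) was 2.37 with limma. No count was recorded for slc1a3b, slc1a6 or slc1a7b.

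None of the 11 tested slc6a genes passed with edgeR. At an unadjusted p under 0.05, 1 was higher and 1 lower, beside 9.76% and 4.60% of all tested genes. DESeq2 also called 1 higher and 1 lower, beside 820 and 511 of all 12524 tested genes, and limma called none. Of the 11, 3 lay lower in every pax2a-high library than in any pax2a-low one, beside 8.11% of all tested genes, and 2 lay higher, beside 21.4%. The 3 were a taurine, a proline and a creatine carrier gene. The creatine carrier gene slc6a8 was at 0, 20.4 and 13.4 CPM among pax2a-high cells, versus 254, 139 and 88.4 CPM among pax2a-low cells (log2 fold change -3.83 with SE 1.58, and edgeR's adjusted p = 0.295). Without pax2a-high replicate 2 or replicate 3 it passed (edgeR adjusted p = 0.00559 and 0.020), as it did with DESeq2 (adjusted p = 0.048) and without a count filter (edgeR adjusted p = 0.00299). The proline carrier gene slc6a7 was at 17, 19.6 and 5.29 CPM in the pax2a-high sort against 124, 32.4 and 24.6 CPM in the pax2a-low sort (edgeR adjusted p = 0.546). The taurine carrier gene slc6a6b was at 14, 13.1 and 8.85 CPM for pax2a-high, compared with 55.8, 59.8 and 30.9 CPM for pax2a-low cells (edgeR adjusted p = 0.628). The groups of its paralogue slc6a6a overlapped, at 0, 2.15 and 8.9 CPM for pax2a-high, compared with 39.8, 17.1 and 0 CPM for pax2a-low cells. Summed ionocyte markers were lower in the same 3 libraries, at 23.7 to 114 CPM against 8089 to 10512 CPM, and their part in these values was not tested.

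On the other side, slc6a14 encodes a broad sodium- and chloride-coupled carrier of neutral and cationic amino acids in mammals. It was at 16.3, 5.94 and 37.7 CPM among pax2a-high cells, versus 0, 0 and 0.316 CPM among pax2a-low cells, the last from 4 counts in replicate 3. The groups did not overlap (log2 fold change 7.33 with SE 2.95, and edgeR's adjusted p = 0.222), and DESeq2 called the gene (adjusted p = 0.0028). The serotonin carrier gene slc6a4a was at 13.8, 5.12 and 4.69 CPM in the pax2a-high sort against 0, 1.76 and 0 CPM in the pax2a-low sort (edgeR adjusted p = 0.709). Of the glycine carrier genes, slc6a9 was at 0.618, 15.9 and 7.71 CPM for pax2a-high, compared with 0, 95.5 and 0 CPM for pax2a-low libraries, and slc6a5 had no count in replicate 1 of either group. No count was recorded for slc6a11b, slc6a19a.1 or slc6a19a.2.

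The 2 carrier genes of slc36a, a family that works at lysosomes and the cell surface in mammals, did not pass the test, and their groups overlapped. The gene slc36a4 was at 55.3, 77.6 and 47.2 CPM among pax2a-high cells, versus 26.6, 46.2 and 109 CPM among pax2a-low cells (log2 fold change -0.02 with SE 0.88, and edgeR's adjusted p = 0.999). For slc36a1 the log2 fold change was 0.54 (SE 2.56, edgeR adjusted p = 0.986). With standard errors of this size, the lack of a call does not show equal levels. A log2 fold change above its SE was not enough for a call, as with slc38a4 (1.19, SE 0.69) and slc6a14 (7.33, SE 2.95).

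In slc43a 1 gene fell and the others overlapped between the groups. The gene slc43a3b, whose human counterpart SLC43A3 carries purine nucleobases rather than amino acids, had 0 counts in all pax2a-high libraries and 130, 893 and 1204 counts in pax2a-low replicates. With each pax2a-high library set to 3 counts it was lower by a factor of 548 in the pax2a-high sort (25.4, 112 and 95 CPM in pax2a-low, edgeR adjusted p = 0.00196). That factor takes no account of spread between libraries or of both mates being counted. Without pax2a-low replicate 2 the call was lost (edgeR adjusted p = 0.054), and limma kept it. The same pax2a-high libraries were at 23.7 to 114 CPM for the summed ionocyte markers, against 8089 to 10512 CPM in pax2a-low libraries, and the part of ionocytes in this call was not tested. The paralogue slc43a3a had 183 counts in pax2a-high replicate 3 and 0 in the other 5 libraries.

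The slc43a genes that carry branched-chain and aromatic amino acids in mammals did not pass. The LAT3 gene slc43a1a was at 64.3, 40.5 and 32.1 CPM in the pax2a-high sort against 92.6, 59.3 and 75.7 CPM in the pax2a-low sort (log2 fold change -0.73 with SE 0.84, and edgeR's adjusted p = 0.857). The LAT4 gene slc43a2a had 224, 157 and 357 counts for pax2a-high, compared with 24, 1068 and 980 counts for pax2a-low cells (log2 fold change -2.75 with SE 1.28, and edgeR's adjusted p = 0.336). Its pax2a-low replicate 1, at 4.69 CPM, lay below every pax2a-high library, and without that library the gene passed as lower (edgeR adjusted p = 0.038). The paralogue slc43a2b had a log2 fold change of -2.25 (SE 2.13).

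Summed over their genes, 3 families were separated between the groups without overlap. The slc38a sum was 2034, 2535 and 1551 CPM among pax2a-high replicates, versus 397, 781 and 311 CPM among pax2a-low replicates, or 2040 ± 492 and 496 ± 250 CPM (SD, n = 3 each). With slc38a2 left out it was 645, 656 and 637 CPM in the pax2a-high sort against 228, 321 and 194 CPM in the pax2a-low sort, still separated. The slc7a sum was 404, 416 and 278 CPM for pax2a-high, compared with 214, 223 and 226 CPM for pax2a-low cells. Without slc7a3a and slc7a3b the order was the other way, with 106, 94.9 and 68.3 CPM among pax2a-high cells, versus 213, 206 and 218 CPM among pax2a-low cells. Those genes had the largest positive log2 fold changes of the family, so the turn follows in part from leaving them out. The slc43a sum was 100, 61.9 and 55.2 CPM in the pax2a-high sort against 123, 396 and 258 CPM in the pax2a-low sort, and with slc43a3b left out the groups overlapped, at 100, 61.9 and 55.2 CPM for pax2a-high and 97.2, 284 and 163 CPM for pax2a-low.

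Sums of the remaining families overlapped. The slc1a, slc3a and slc36a sums overlapped, as did slc6a as a whole, at 91, 140 and 161 CPM for pax2a-high, compared with 515, 372 and 159 CPM for pax2a-low cells. No p-value is given for these sums, since their make-up follows from the choice of genes. As a share of all counts over the 79 genes, slc38a took 63.7, 68.2 and 65.8% in the pax2a-high sort against 26.5, 37 and 26% in the pax2a-low sort. Over all 79 genes the sum was 3195, 3717 and 2357 CPM for pax2a-high, compared with 1499, 2114 and 1197 CPM for pax2a-low cells, without overlap. Without the 4 genes that passed it was 1286 ± 187 and 1268 ± 277 CPM (SD, n = 3 each). As those 4 were left out because they differed, this gives no test of the remaining genes.

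**Figure D3:**
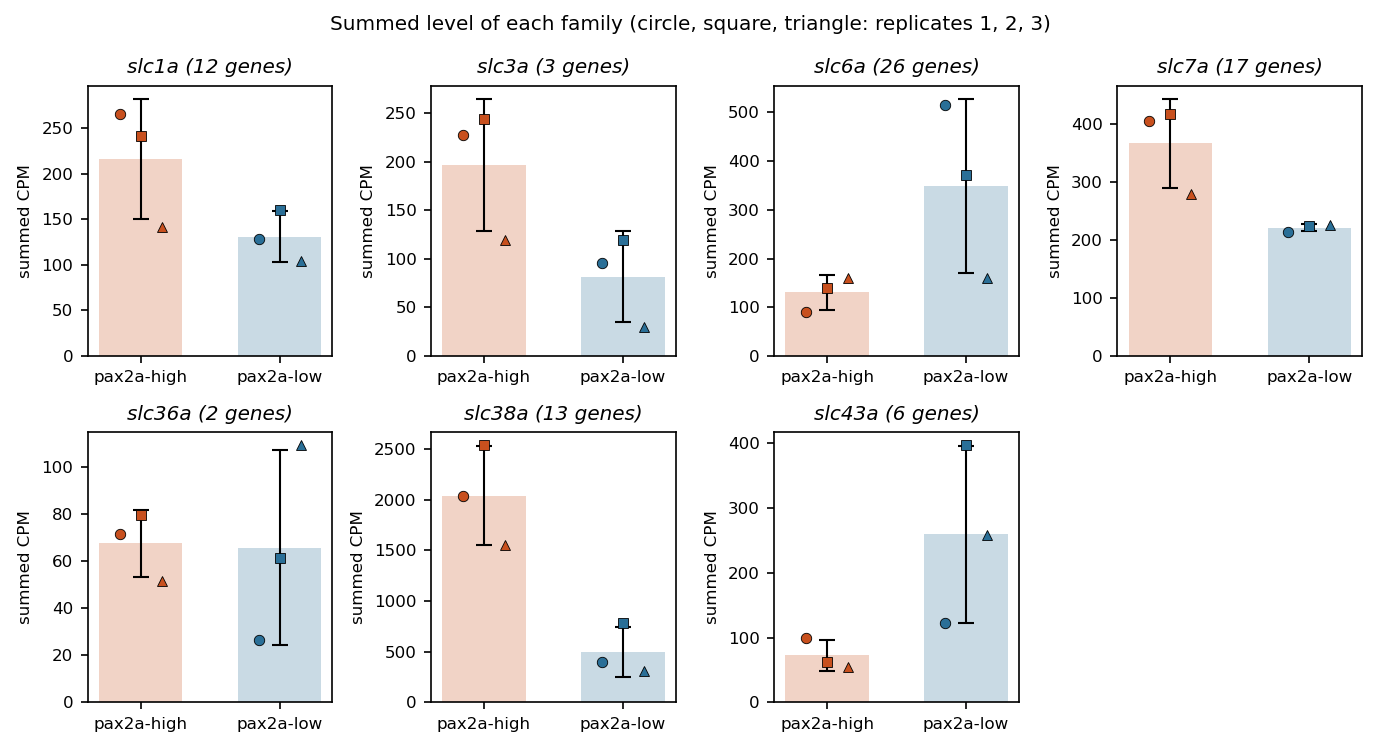
Summed CPM over all genes of each family (y axis, linear from 0, one scale per panel) in pax2a-high and pax2a-low cells; symbols are libraries, bars the mean and whiskers the SD (n = 3). The slc38a sums, 1551 to 2535 CPM in pax2a-high, lie above the 311 to 781 CPM of pax2a-low, slc7a is also higher, slc43a is lower and the other families overlap.

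Separation of all libraries was not rare in these data. Of the 43 tested genes, 10 had every pax2a-high library above every pax2a-low one (23.3%), beside 21.4% of all tested genes, and 5 had every pax2a-high library below (11.6%), beside 8.11% of all tested genes. The 10 were slc1a4, slc6a4a, slc6a14, slc7a3a, slc7a3b, slc7a10a, slc38a2, slc38a3a, slc38a4 and slc38a8b. The 5 were slc6a6b, slc6a7, slc6a8, slc7a1a and slc43a3b. Both shares are near those of all tested genes, so they say nothing particular about transporters.

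**Figure D4:**
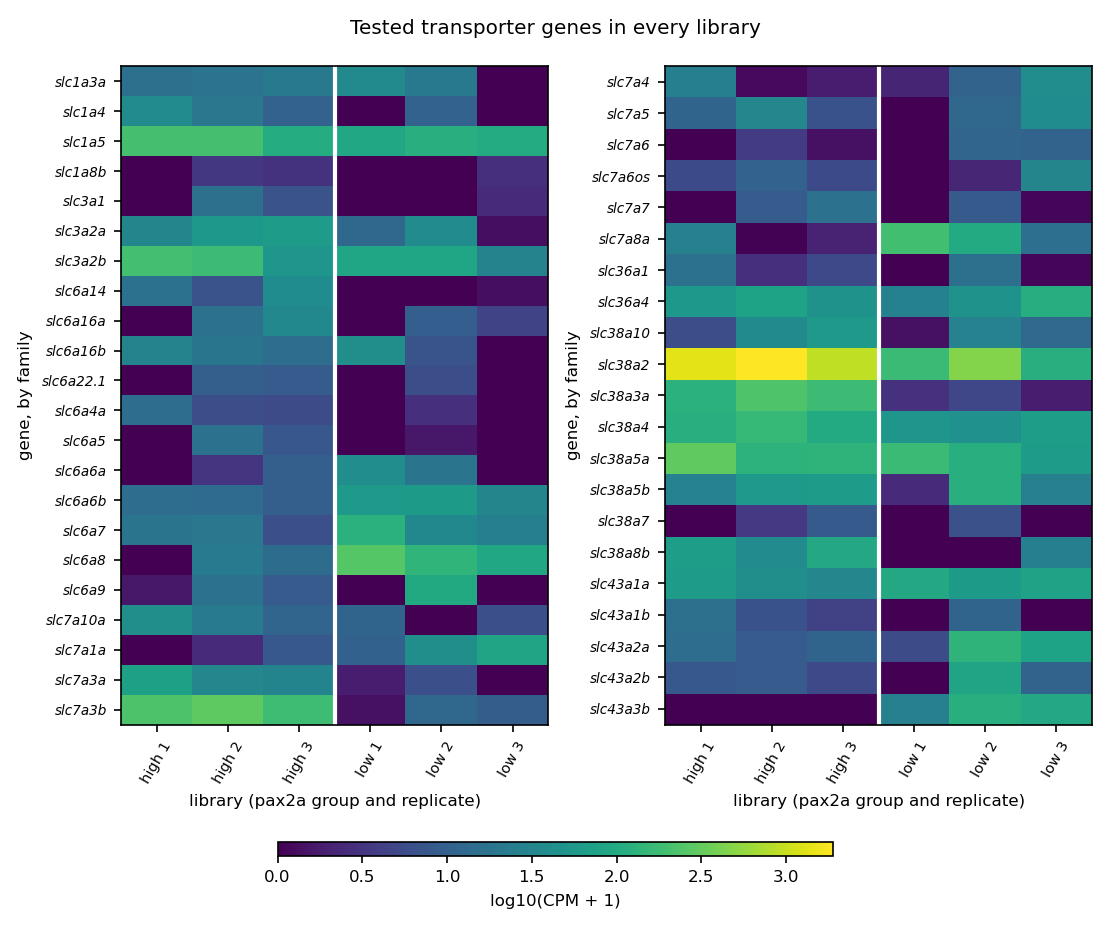
Level of the 43 tested genes (rows, ordered by family and running on from the left panel to the right) in each library (columns), as log10(CPM + 1) by colour. The slc38a2 row is brightest in pax2a-high, 914 to 1879 CPM, and slc43a3b is at 0 there.

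Genes that sense or use amino acids were examined as 5 lists. For each list the edgeR counts stand beside 1.12% of all tested genes called higher and 1.46% called lower, 9.76% and 4.60% at an unadjusted p under 0.05, and a median log2 fold change of 0.35 over all tested genes. Over the same 12524 genes DESeq2 called 820 higher and 511 lower, and limma 99 and 277. In the amino acid stress response, 1 of 25 tested genes rose and 0 fell by edgeR (median log2 fold change 1.17), with 8 higher and 1 lower at an unadjusted p under 0.05, 2 and 1 with DESeq2 and 0 with limma. It was atf5a, which encodes a transcription factor downstream of ATF4 in mammals, at 66.5, 124 and 32.3 CPM among pax2a-high cells, versus 0, 0.503 and 0 CPM among pax2a-low cells (log2 fold change 8.72 with SE 1.90, and edgeR's adjusted p = 0.020). Each pax2a-high library lay above each pax2a-low library, but the call was lost when pax2a-high replicate 1 or 2 was left out (edgeR adjusted p = 0.112 and 0.217) and with limma (adjusted p = 0.111). Of the ATF4 paralogues, atf4b was at 862, 842 and 622 CPM in the pax2a-high sort against 65.2, 204 and 351 CPM in the pax2a-low sort, without overlap (log2 fold change 1.91 with SE 0.54, and edgeR's adjusted p = 0.082). It was called when pax2a-low replicate 3 (edgeR adjusted p = 0.00589) or pax2a-high replicate 2 or 3 was left out (edgeR adjusted p = 0.036 and 0.00763), and with no count filter (edgeR adjusted p = 0.00198). The other, atf4a, overlapped between the groups, at 417, 298 and 158 CPM for pax2a-high, compared with 139, 274 and 95.8 CPM for pax2a-low cells. Its log2 fold change of 0.78 (SE 0.56) was not called (edgeR adjusted p = 0.685). Neither atf5b, at 187, 36.9 and 91.8 CPM for pax2a-high, compared with 0.781, 15.1 and 2.53 CPM for pax2a-low cells, nor nupr1b, at 25.2, 33.6 and 20.7 CPM among pax2a-high cells, versus 131, 124 and 102 CPM among pax2a-low cells, passed (edgeR adjusted p = 0.106 and 0.183).

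In amino acid sensing by mTORC1, the kinase complex that couples growth to amino acid supply, 1 of 32 tested genes rose and 0 fell by edgeR (median 0.10), as at an unadjusted p under 0.05 and with DESeq2, with 0 by limma. It was sesn1, which encodes sestrin 1, a protein that restrains mTORC1 in mammals. It was at 138, 204 and 152 CPM in the pax2a-high sort against 5.86, 26.3 and 22.9 CPM in the pax2a-low sort, with no overlap (log2 fold change 3.16 with SE 0.79, and edgeR's adjusted p = 0.044). This call sat close to the threshold and was lost without any 1 of the pax2a-high libraries (edgeR adjusted p of 0.068 to 0.159) or without pax2a-low replicate 2 (edgeR adjusted p = 0.102). It was also lost with a filter of 5 CPM in 3 libraries (edgeR adjusted p = 0.066), with thinning to the shallowest library (edgeR adjusted p = 0.051), with limma (adjusted p = 0.156) and at a threshold of 0.01. The genes tfe3b, tsc1a and rhebl1 had log2 fold changes of -2.62 (SE 1.36), -1.60 (SE 1.15) and 3.57 (SE 2.67) and did not pass.

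The next list held genes of cytosolic aminoacyl-tRNA synthetases, which load amino acids onto tRNA, and the partner protein genes aimp1a, aimp1b and aimp2. None of its 21 tested genes, aimp1a and aimp2 among them, passed with edgeR (median 1.63). At an unadjusted p under 0.05, 2 were higher and 0 lower, with 2 higher by DESeq2 and 0 by limma. The summed level of the list was 789, 701 and 641 CPM for pax2a-high, compared with 129, 478 and 346 CPM for pax2a-low cells, without overlap. Of the 21 tested, 8 had every pax2a-high library above every pax2a-low one, beside 21.4% of all tested genes. Examples were yars1, with 200, 821 and 642 counts in pax2a-high and 0 in all pax2a-low libraries (edgeR adjusted p = 0.117), and farsa, with 396, 500 and 736 counts among pax2a-high libraries, versus 0, 0 and 3 counts among pax2a-low libraries (edgeR adjusted p = 0.187). DESeq2 called both (adjusted p of 3.38e-05 and 0.000208). The genes tars1 and kars1 had log2 fold changes of 2.94 (SE 1.82) and 1.63 (SE 1.16) and did not pass.

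Among 27 tested genes of amino acid synthesis and breakdown 1 rose and 0 fell by edgeR (median 0.31), with 3 higher and 1 lower at an unadjusted p under 0.05, 2 and 1 with DESeq2 and 1 and 0 with limma. Both that share of higher genes and that median are near those of all tested genes. Among 11 tested carriers outside the 7 families 0 rose and 1 fell by edgeR (median -0.69), with 1 higher and 1 lower at an unadjusted p under 0.05 and 0 and 1 with both DESeq2 and limma. The gene that rose, qdpra, encodes dihydropteridine reductase, which regenerates the cofactor used to make tyrosine from phenylalanine. It had 1416, 672 and 3430 counts in pax2a-high and 0 in all pax2a-low libraries (edgeR adjusted p = 0.00472). With each pax2a-low library set to 3 counts, which ignores spread between libraries, it was 183-fold higher. The call did not survive leaving out pax2a-high replicate 1 (edgeR adjusted p = 0.068). The glutaminase gene glsb was at 204, 278 and 177 CPM in the pax2a-high sort against 77.7, 51.3 and 34.7 CPM in the pax2a-low sort (log2 fold change 2.01 with SE 0.61, and edgeR's adjusted p = 0.112). The aspartate aminotransferase gene got2b, with 297, 140 and 360 counts in pax2a-high and 0 in all pax2a-low libraries, and the cystathionine beta-synthase gene cbsb, whose log2 fold change was -2.33 with an SE of 1.03, were not called either (edgeR adjusted p = 0.185 and 0.292). The gene that fell was slc25a12, which encodes the mitochondrial aspartate-glutamate carrier, at 34, 20.1 and 20.4 CPM for pax2a-high, compared with 253, 106 and 218 CPM for pax2a-low cells without overlap (log2 fold change -2.95 with SE 0.70, and edgeR's adjusted p = 0.032). Mitochondrial rows were also lowest in the pax2a-high libraries, at 0.799 to 1.17% of counts against 24.1 to 49%, and the slc25a12 call was lost without any 1 of the pax2a-high libraries (edgeR adjusted p of 0.061 to 0.100). The part of mitochondrial content in that value was not tested. Of the other carriers, slc25a38a, with 33, 180 and 112 counts in pax2a-high and 0 in all pax2a-low libraries, mfsd12a (log2 fold change 3.39, SE 2.70) and slc16a10 (-5.01, SE 3.23) were not called.

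**Figure D5:**
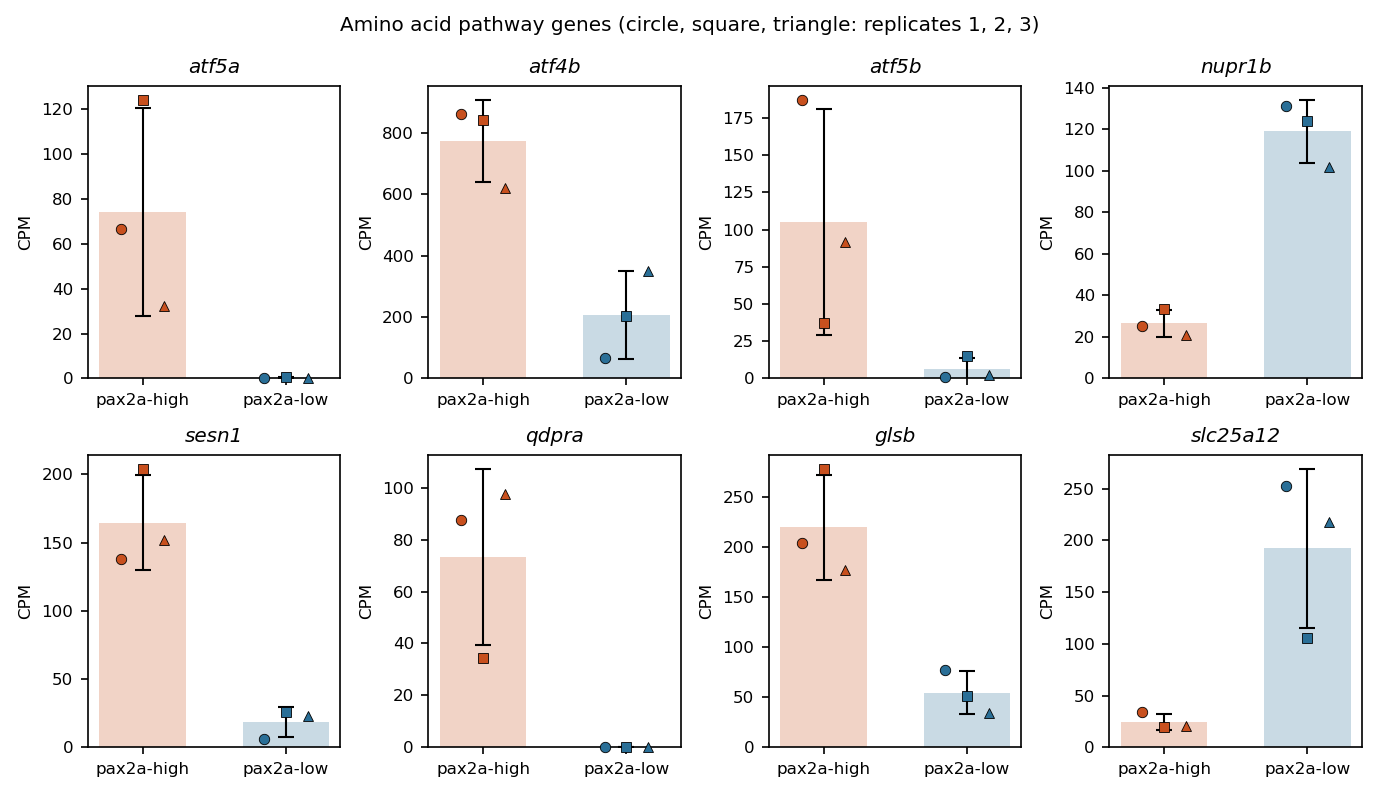
Level in CPM (y axis, linear from 0, one scale per panel) of 8 genes of the amino acid lists in pax2a-high and pax2a-low cells; symbols are libraries, bars the mean and whiskers the SD (n = 3). Those that passed are atf5a, sesn1 and qdpra, higher, and slc25a12, lower; atf4b, atf5b, glsb and nupr1b are separated between the groups but did not pass.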

How the data were processed

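The authors deposited raw read counts per gene, whole numbers without normalization, for 6 libraries. HISAT2 alignment to GRCz11 and featureCounts over exons are named in the submitters' processing notes and the design text; versions, strandedness and the handling of multiply mapped reads are not given in the sources used here. Depth was 6053741 to 35403210 counts. In each library 67.8 to 89% of counts above 0 were even, so many may be of both mates, and floors therefore describe counting error alone.

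Titles gave each library's group and number, and the column headers use the same numbers for sets. Testing used edgeR 4.0.16 (R 4.3.3) with filterByExpr, TMM factors and a robust quasi-likelihood fit on group, adjusted by Benjamini-Hochberg over 12524 genes at 0.05. The code was also run on simulated counts with a dispersion shared by all genes. Real libraries differ from that setting, so the simulation gives no error rate for these data. SEs derive from the quasi-likelihood statistic. Against a group at 0 counts, a fold is a bound over 3 counts per library, averaged over the group.

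The genes and lists were chosen with earlier results of these data known. The rule for named genes takes members past the threshold, the 3 of each family with the highest mean CPM, those with a mean of at least 5 CPM and no overlap, and from each pathway list those past the threshold and up to 4 with the smallest p. Other genes named were chosen after their values were seen. Alternatives were DESeq2 size factors, DESeq2 1.42.0, limma 3.58.1 (voom with quality weights), mitochondrial rows left out, no count filter, 5 CPM in 3 libraries, a threshold of 0.01, halved counts, thinning, a replicate block and each library left out. The planned promoter motif search was not run, as no promoter table was used here.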

Additional observations from a re-analysis of the deposited data

How the results depend on the processing

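The log2 fold changes of slc38a2, slc38a3a, slc7a3b and slc43a3b kept their sign in all 17 alternatives, and the calls held in 13, 16, 15 and 16 of them. The number of transporter genes called higher, 3, was 5 with DESeq2, 0 with limma and 2 to 4 when 1 library was left out. The number called lower, 1, was 2 without a count filter, 2 with DESeq2, 3 with the replicate block and 0 to 2 when 1 library was left out. Their median log2 fold change of 0.73, beside 0.35 over all tested genes, was 2.37 beside 1.52 with limma, 2.08 beside 1.42 with the replicate block, 1.41 beside 0.92 without a count filter, 2.04 beside 1.33 without pax2a-low replicate 2, and 0.39 beside 0.47 and 0.67 beside 0.70 without pax2a-high replicate 1 and pax2a-low replicate 3, where the order turned. DESeq2 size factors moved the median of all tested genes to 0.24, against 0.35 with TMM.

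Over all genes, 140 were called higher and 183 lower. At a threshold of 0.01 these were 44 and 110, without a count filter 328 and 299, with DESeq2 820 and 511, and leaving out 1 library 40 to 270 and 120 to 253. The number higher was 40 without pax2a-high replicate 1 and was 246, 270 and 247 without pax2a-high replicate 3, pax2a-low replicate 1 and pax2a-low replicate 3, and the number lower was 120 without pax2a-high replicate 1. The number higher was also 73 with a filter of 5 CPM in 3 libraries and 425 with the replicate block, and the number lower was 277 with limma. Among the transporter genes taken by the rule for named genes, the sign turned for slc1a3a, slc36a1 and slc36a4, whose adjusted p passed in none of their alternatives. Signs of other transporter genes in the text, such as slc7a5 and slc38a5b, were not followed in this way. For slc1a3a, at -0.11, the log2 fold change was 2.37 with limma and 0.85 with the replicate block, and it ran between -0.77 and 0.83 over the leave-one-out fits, turning at 0.01 when pax2a-high replicate 1 was absent. For slc36a1, at 0.54, those fits ran between -0.67 and 6.24, turning also at -0.04. For slc36a4, at -0.02, the value was 0.00 with either set of mitochondrial rows left out and 0.22 with the replicate block, and those fits ran between -0.35 and 0.67, turning also at 0.07 and 0.11. The cause was not tested. Leaving out all 37 mitochondrial rows and thinning every library to 6053741 counts were chosen after seeing the data.

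The column headers give both groups the same set numbers, and the labels do not say whether a set shares fish or a sort. Same-numbered libraries deviated together weakly (correlations of 0.0385, 0.048 and 0.0572), and each library correlated best with its own number. Such correlations cannot exclude pairing, and the main fit left the numbers out. With the replicate block, 425 genes were called higher and 263 lower over all genes, against 140 and 183 in the main fit. The block kept the 3 calls of higher genes and also called slc6a8 and slc7a8a lower (edgeR adjusted p = 0.00943 and 0.044) and atf4b higher (edgeR adjusted p = 0.000659).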

Other observations

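Many of the 79 genes were seen in few libraries. Of the 36 that did not pass the filter on low counts, 7 had no count, 12 had counts in a single library and 28 stayed under 5 CPM in every library. Of the 79, replicates 1, 2 and 3 of pax2a-high showed 38, 47 and 64 genes with a count, against 30, 49 and 36 for pax2a-low. At the depth of the shallowest library the expected numbers were 37.5, 45.5 and 60.6 for pax2a-high, against 30.0, 49.0 and 35.2 for pax2a-low. Pax2a-high replicate 3 kept the most detected genes at that common depth, and the groups overlapped. The neutral amino acid carrier gene slc6a15 had 2, 0 and 0 counts for pax2a-high, against 2, 8 and 140 counts for pax2a-low.

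Paralogue pairs divided their counts differently across libraries. For slc38a3a and slc38a3b, the first took 94, 99.7 and 100% of the pair's counts for pax2a-high, against 100, 80 and 83.3% for pax2a-low. For slc3a2a and slc3a2b, the first took 13.4, 23.7 and 53.9% for pax2a-high, against 12.3, 30.9 and 1.11% for pax2a-low replicates 1, 2 and 3. For slc38a5a and slc38a5b, the first took 91.7, 69.9 and 68.8% for pax2a-high, against 99.1, 49.1 and 71.2% for pax2a-low replicates. The shares of the slc3a2 and slc38a5 pairs overlapped between the groups, and how shared reads were assigned is not known.

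In RefSeq's GRCz12tu gene table, where all 79 names were found, 4 neighbouring pairs had both genes tested. The genes slc38a2 and slc38a4 lie with 1 protein-coding gene between them, and each was higher in every pax2a-high library than in any pax2a-low library, though slc38a4 did not pass the test. The genes slc7a1a and slc43a2b, with 2 between them, had log2 fold changes of -3.93 (SE 2.06) and -2.25 (SE 2.13), and neither passed. The genes slc43a2a and slc6a4a, with 4 between them, had log2 fold changes of opposite sign, -2.75 (SE 1.28) and 3.72 (SE 2.81), and neither passed. The adjacent slc7a6os and slc7a6 had -0.76 (SE 2.45) and -2.75 (SE 2.80), and neither passed.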
